A study of Mus musculus with 16 samples.

Results

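The CCN family is a group of 6 mouse genes, Ccn1 to Ccn6, that encode secreted matricellular proteins. The family was selected on the difference between young BACHD and WT hearts, where Ccn5 is among the strongest genes, and its members are the probes whose annotation carries one of the CCN symbols or an older name (Cyr61, Ctgf, Nov, Wisp1, Wisp2, Wisp3). This gave 7 of the 25697 probes on the array, and these 7 probes belong to 4 of the 6 genes: 3 probes to Ccn1, 1 to Ccn2, 2 to Ccn4 and 1 to Ccn5. The array names 16593 genes in all. Ccn3 and Ccn6 carry no probe symbol in the annotation used and were not analysed here.

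BACHD mice carry full-length mutant human huntingtin on a bacterial artificial chromosome and are a model of Huntington's disease. The study compared ventricle RNA of BACHD mice on the C57BL6/J background with that of WT littermates at 3 mo (young) and at 15 mo (aged), on Illumina MouseRef-8 bead arrays. There were 4 arrays in each of 4 groups: aged BACHD, aged WT, young BACHD and young WT. The transgene is present in every tissue of these mice throughout life, so the comparison between genotypes does not separate effects that arise in the heart from those that arise elsewhere.

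CCN proteins are built from modules that bind growth factors, proteoglycans and integrins, and they are thought to adjust how cells respond to the matrix and to growth factors rather than to hold the matrix together. Ccn1 and Ccn2 are rapidly induced target genes of the Hippo pathway cofactors YAP and TAZ, which act through TEAD transcription factors, and Ccn2 is also a target of transforming growth factor beta (TGF-beta) and a common marker of fibrosis. Ccn5 lacks the C-terminal module of the other members and, in mouse hearts, has been described as opposing the hypertrophic and fibrotic actions of Ccn2.

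The reference promoter table held an entry for 1 of the 4 measured members, Ccn1. It is shown because Ccn1 is a textbook YAP and TEAD target and its main probe is the only CCN probe called with age in BACHD hearts. The 250 bases before the Ccn1 start (RefSeq, GRCm38.p6, minus strand, chr3:145649986-145650235) are printed 5′ to 3′, with the TEAD motif CATTCC in capitals.
Ccn1 promoter: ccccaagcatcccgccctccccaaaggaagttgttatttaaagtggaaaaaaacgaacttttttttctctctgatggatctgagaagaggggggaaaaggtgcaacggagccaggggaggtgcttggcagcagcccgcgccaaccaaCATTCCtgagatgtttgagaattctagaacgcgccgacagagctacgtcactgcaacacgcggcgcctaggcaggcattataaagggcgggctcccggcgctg
The motif lies 103 to 98 bases before the start and was searched on both strands. CATTCC is found in 12.64% of the 32851 promoter windows of the same length. A cAMP response element core, TGACG, was read from the opposite strand 58 to 54 bases before the start, and is held by 17.77% of the windows. The CArG box of serum response factor, which 1.467% of windows hold, had no match in this window.

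Expression was read as normalized log2 intensity, and a probe was called at P below 0.005 in a linear model over all 16 arrays. A probe counted as detected on an array where its detection p was below 0.01. Levels are compared between groups for 1 probe at a time and never between probes, because the brightness of a bead depends on its probe. Array medians of the raw intensity were 133 to 157, and between 9780 and 10755 probes were detected on each array. The arrays correlated with each other at 0.984 to 0.994. All 7 measured cardiomyocyte markers were detected on all 16 arrays. The mean log2 level of 5 atrial markers was 7.07 and 6.94 on aged BACHD arrays 3 and 4, and 7.26 and 8.41 on aged WT arrays 2 and 4, against 5.37 to 5.68 on the other 12 arrays. The CCN results that use the aged hearts were therefore also fitted without these 4 arrays, a choice made after seeing the data. In tissue RNA, fewer cells of a type and less RNA per cell cannot be told apart.

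Ccn5 (Wisp2; chr2:163820752-163833146) was high in 3 groups and low in young WT hearts. Its probe was detected on 16 of 16 arrays. The normalized log2 values were 7.84, 7.86, 7.64 and 8.04 in aged BACHD hearts and 7.68, 8.11, 8.01 and 7.88 in aged WT hearts. The values were 7.59, 7.66, 7.50 and 7.73 in young BACHD hearts, and 7.27, 7.27, 6.61 and 6.90 in young WT hearts. In these normalized values every young WT heart lay below every heart of the other groups, while the aged BACHD and aged WT values overlapped throughout. The probe was dim, with raw intensities of 208 to 482. In raw intensity, before the arrays were normalized, the young groups overlapped. Young WT heart 1 read 301, above young BACHD hearts 1, 3 and 4 (298, 299 and 268). The share of all probes whose young groups did not overlap was not computed.

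In young hearts the Ccn5 log2 difference, BACHD minus WT, was 0.60 ± 0.14 (SE), a 1.52-fold higher level. With the deposited log2 values, which have no background correction, it was 0.34. The paper lists this probe, as Wisp2, with that value among the genes raised in young BACHD hearts. This contrast chose the family, so the value is a description and carries no p. Across all probes 0.483% passed P below 0.005 in this contrast, and Ccn5 was 1 of the 4 measured CCN genes that did. In aged hearts, which are separate animals, Ccn5 averaged 7.84 ± 0.16 in BACHD and 7.92 ± 0.19 in WT (SD, n = 4 each). Their log2 difference was -0.07, with a 95% confidence interval from -0.37 to 0.22 (adjusted p = 0.974, limma). The genotype difference in aged hearts minus that in young hearts was -0.68 ± 0.20 (SE) on the log2 scale. It contains the contrast that chose the family and is likewise given with no p; 0.611% of all probes passed P below 0.005 for this difference, and Ccn5 was the CCN gene that did. With 1 array left out it ranged from -0.77 to -0.54 and passed in 5 of 16 fits. It was -0.39 with the deposited log2 values, -0.63 and not called with median scaling, and -0.60 and not called with those 4 atrial-marker arrays left out.

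With age, Ccn5 rose in WT hearts. It averaged 7.92 ± 0.19 in aged WT hearts and 7.02 ± 0.32 in young WT hearts (SD, n = 4 each). The log2 difference was 0.90 ± 0.14 (SE), a 1.87-fold increase (adjusted p = 0.00483, limma). All 4 aged WT values lay above all 4 young WT values (exact permutation p = 0.0286, the smallest that 35 splits allow). Of all probes, 2.77% were called at P below 0.005 and 0.712% at an adjusted p below 0.05 in WT ageing, and 6.81% had groups that did not overlap. The low young WT arrays enter this contrast as well as the one that chose the family, so the increase is not independent of that choice. With those 4 atrial-marker arrays left out, the log2 difference was 0.83, called at P below 0.005 but not after adjustment (adjusted p = 0.0935). With the deposited log2 values it was 0.54.

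In BACHD hearts the values for aged against young animals were closer, averaging 7.84 ± 0.16 in aged BACHD and 7.62 ± 0.10 in young BACHD (SD, n = 4 each). The difference on the log2 scale was 0.23, with an interval from -0.07 to 0.52 (adjusted p = 0.503, limma), and 3 of the 4 aged BACHD hearts lay above every young BACHD heart. The young BACHD arrays were the high side of the contrast that chose the family. They enter this contrast too, so its small difference is not independent of that choice. Ordered by level, aged WT, aged BACHD and young BACHD followed each other with no call between aged WT and aged BACHD or between aged BACHD and young BACHD. Beside the WT increase, the mean log2 level of 6 smooth muscle markers was 7.02 to 7.33 in aged WT and 6.66 to 7.01 in young WT hearts. In BACHD it was 6.97 to 7.24 in aged and 6.725 to 7.17 in young hearts. Of the 6 markers, 3 were detected on at least 4 arrays. Their differences were positive for 5 in WT ageing and for 6 in BACHD ageing. Myh11, the smooth muscle myosin heavy chain, was called in WT ageing, with a log2 difference of 0.82. In BACHD ageing it was 0.56 and not called. The part of these cells in the Ccn5 values was not tested.

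**Figure D1:**
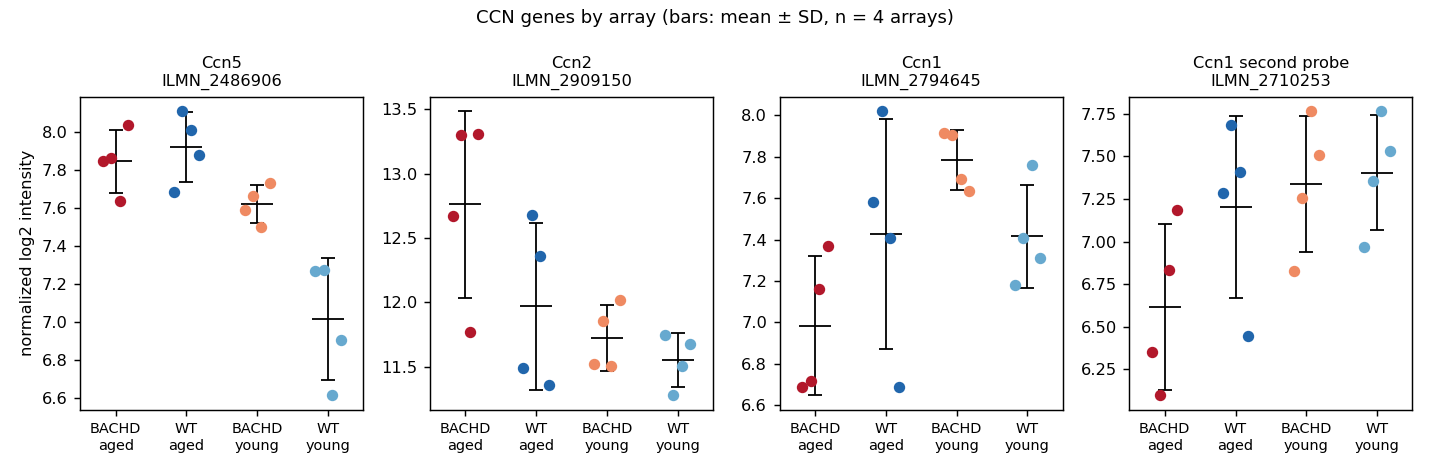
Normalized log2 intensity (vertical axis) of Ccn5, Ccn2 and both brighter Ccn1 probes on each of the 16 arrays, by group along the horizontal axis, with bars for the mean ± SD (n = 4 arrays). Young WT hearts sit lowest for Ccn5, 3 of 4 aged BACHD hearts sit above all young hearts for Ccn2, and all 4 aged BACHD hearts sit below all young BACHD hearts for the main Ccn1 probe.

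Ccn2 (Ctgf; chr10:24595442-24598683) had its highest values in aged BACHD hearts, but its spread among aged hearts was wide. Its probe was detected on 16 of 16 arrays, with raw intensities between 2449 and 11354. The log2 values were 12.67, 13.30, 11.77 and 13.31 in aged BACHD hearts, against 11.49, 12.68, 12.36 and 11.36 in aged WT hearts. In young hearts they were 11.52, 11.85, 11.51 and 12.02 in BACHD, against 11.74, 11.28, 11.51 and 11.68 in WT. Among aged hearts the SD was 0.73 for BACHD against 0.65 for WT, and among young hearts 0.25 for BACHD against 0.21 for WT. Both aged groups thus held hearts at the level of the young groups as well as hearts above every young value.

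Between genotypes in aged hearts, Ccn2 averaged 12.76 in BACHD and 11.97 in WT. The log2 difference was 0.79 ± 0.33 (SE), a 1.73-fold higher mean that did not pass the threshold (adjusted p = 0.757, limma; exact permutation p = 0.143). It had 2 of the 4 aged BACHD hearts above every aged WT heart. Aged BACHD heart 3 was the low value of its group, and without it the log2 difference was 1.12 and the fit called Ccn2 at P below 0.005 (adjusted p = 0.171). The lowest value with 1 array left out was 0.59, without aged WT heart 4 (adjusted p = 0.799). In young hearts the log2 difference was 0.17 ± 0.33 (SE), with overlapping groups. The difference between these genotype effects was 0.62 ± 0.46 (SE), which was not called.

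Across age in BACHD hearts, Ccn2 averaged 12.76 ± 0.73 in aged hearts and 11.72 ± 0.25 in young hearts (SD, n = 4 each). This was a log2 difference of 1.04 ± 0.33 (SE), a 2.05-fold higher mean that lay just outside the threshold (adjusted p = 0.109, limma; exact permutation p = 0.0857). Of the aged BACHD hearts, 3 of 4 lay above every young BACHD heart. Without aged BACHD heart 3, Ccn2 passed the threshold, with a log2 difference of 1.37 (adjusted p = 0.0123); the lowest value with 1 array left out was 0.86 and was not called. In WT hearts the log2 difference with age was 0.42 ± 0.33 (SE; adjusted p = 0.722), and 2 of 4 aged WT hearts lay above every young WT heart. In order of the means, aged BACHD, aged WT, young BACHD and young WT followed each other, and none of the neighbouring groups that were tested differed beyond the threshold.

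The 4 aged arrays with raised atrial markers held both high and low Ccn2 values (11.77 and 13.31 in BACHD, 12.68 and 11.36 in WT). With these 4 arrays left out, the Ccn2 log2 difference in aged hearts, BACHD minus WT, was 1.06 (adjusted p = 0.291), and Ccn2 and Ccn1 were both called at P below 0.005. With age in BACHD hearts the Ccn2 difference was then 1.26, also called (adjusted p = 0.0296). That fit compares 2 aged BACHD hearts with 2 aged WT hearts and borrows its spread from all groups.

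Ccn1 (Cyr61; chr3:145646971-145649985) fell with age in BACHD hearts on its main probe. Both of its brighter probes were detected on 16 of 16 arrays, and the third, ILMN_1235571, on 3. Even the brighter probes were dim, with raw intensities of 205 to 462 on ILMN_2794645 and 191 to 390 on ILMN_2710253. The main probe is the one of highest mean, ILMN_2794645. Its log2 values were 6.69, 6.72, 7.16 and 7.37 in aged BACHD hearts and 7.91, 7.91, 7.69 and 7.63 in young BACHD hearts. All 4 aged BACHD values thus lay below all 4 young BACHD values (exact permutation p = 0.0286). In raw intensity, before the arrays were normalized, young BACHD heart 4 read 257, below aged BACHD heart 4 at 270. The log2 difference was -0.80 ± 0.23 (SE), a 0.573-fold level that was called at P below 0.005 but not after adjustment (adjusted p = 0.0715, limma). Over all probes, 5.15% were called in BACHD ageing and 8.9% had groups that did not overlap. Ccn1 was 1 of the 4 measured CCN genes in each respect.

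The call for Ccn1 was not held by all choices of arrays: leaving out 1 array at a time kept the log2 difference between -0.93 and -0.70, and the probe passed P below 0.005 in 3 of 8 such fits. It did not pass without aged BACHD heart 1 or 2, or without young BACHD heart 1, 2 or 3. With those 4 atrial-marker arrays left out, which leaves 2 aged BACHD hearts, it was -1.08 (adjusted p = 0.00498). It was -0.47 and called with the deposited log2 values. It was not called with median scaling (-0.77), with the probes of the gene averaged (-0.59) or with the replicate number as a block (-0.80). The second probe, ILMN_2710253, gave 6.35, 6.10, 6.83 and 7.18 in aged BACHD hearts, against 6.83, 7.25, 7.77 and 7.51 in young BACHD hearts. Its groups overlapped and its log2 difference of -0.72 ± 0.28 (SE) was not called (adjusted p = 0.216). Both probes were lower in aged BACHD than in young BACHD hearts by a like amount, and they correlated at r = 0.784 over the 16 arrays. The third probe, near background, had a log2 difference of -0.25.

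In WT hearts, Ccn1 on the main probe read 7.58, 8.02, 7.41 and 6.69 in aged animals, against 7.18, 7.41, 7.76 and 7.31 in young animals. The means were 7.43 in aged WT and 7.42 in young WT hearts, with a log2 difference of 0.01 and an interval from -0.48 to 0.49 (adjusted p = 0.994, limma). The second probe read 7.28, 7.68, 7.41 and 6.45 in aged WT hearts, against 6.97, 7.35, 7.76 and 7.53 in young WT hearts, with a log2 difference of -0.20.

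Between genotypes, the main Ccn1 probe was lower in aged BACHD than in aged WT hearts without passing the threshold. At 15 mo it averaged 6.98 ± 0.34 in BACHD and 7.43 ± 0.56 in WT (SD, n = 4 each). The log2 difference was -0.44 ± 0.23 (SE; adjusted p = 0.852), and -0.59 ± 0.28 (SE; adjusted p = 0.841) on the second probe. Aged WT heart 4 was the low value of its group, and without it the log2 difference of the main probe was -0.69 and was called at P below 0.005 (adjusted p = 0.409). Without aged WT heart 2, the high value of the group, it was -0.24 (adjusted p = 0.927). With those 4 atrial-marker arrays left out, it was -0.79 and also called (adjusted p = 0.160), as was the second probe at -1.12 (adjusted p = 0.253). In young hearts the main probe was 0.37 higher in BACHD and the second was -0.06 on the same scale, so the probes did not share a sign there. On the main probe the order of the means was young BACHD, aged WT, young WT and aged BACHD, and the range of aged WT hearts covered that of young WT hearts.

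Of the 4 measured CCN genes, 0 were called between aged BACHD and aged WT hearts at P below 0.005, where 0.895% of all probes were called. None had groups that did not overlap there, against 3.21% of all probes. At an unadjusted P below 0.05, 1 of the 4 genes passed in that contrast, Ccn2 (adjusted p = 0.757, limma), where 6.12% of all probes passed.

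**Figure D2:**
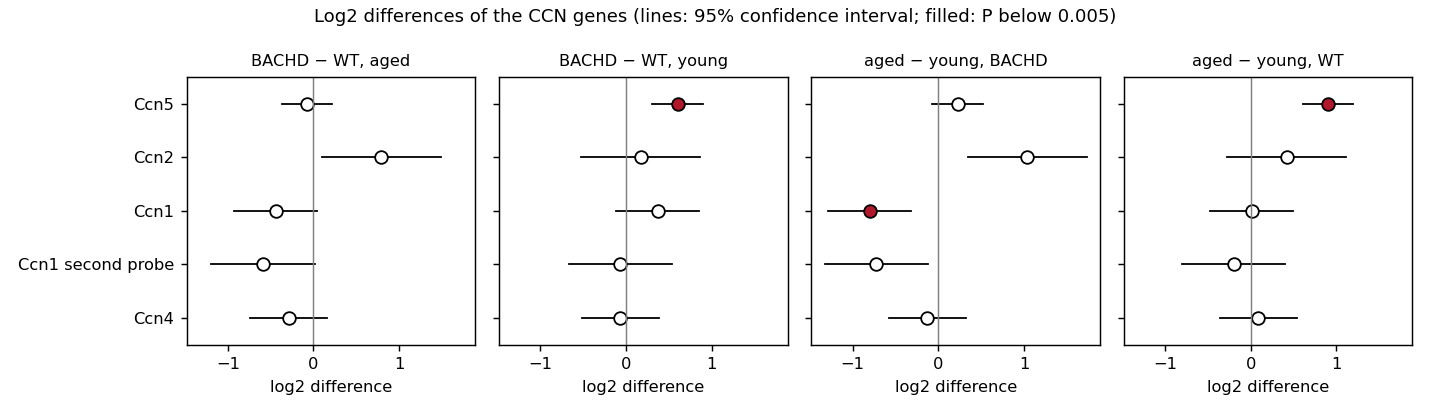
Log2 difference (horizontal axis) of each CCN gene, 1 row a probe, for BACHD minus WT in aged and in young hearts and for aged minus young in BACHD and in WT hearts. Lines are 95% confidence intervals and filled points passed P below 0.005: Ccn5 in young hearts and in WT ageing, and Ccn1 in BACHD ageing.

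Ccn4 (Wisp1; chr15:66891369-66923201), a Wnt-induced member, was near the background of the arrays. Its brighter probe, ILMN_2492264, was detected on 2 of 16 arrays, and the other, ILMN_2453775, on 0. The brighter probe ranged over 4.67 to 5.31 in aged BACHD hearts and 5.08 to 5.65 in aged WT hearts. It ranged over 4.91 to 5.24 in young BACHD hearts and 4.58 to 5.68 in young WT hearts. Neither probe was called in any of the 5 contrasts, and at these intensities a difference in Ccn4 was not detectable. Ccn3 (Nov) lies at chr15:54745910-54753762, on the same chromosome as Ccn4, and Ccn6 (Wisp3) at chr10:39150970-39174376, on the same chromosome as Ccn2.

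The measured members did not follow one pattern across the arrays. Over the 16 arrays the Pearson r was 0.591 between Ccn2 and Ccn5, -0.263 between Ccn1 and Ccn2, and -0.164 between Ccn1 and Ccn5. After the group means were removed these were 0.534, 0.275 and -0.06. These values are descriptions over arrays that share their groups.

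Among 9677 probes of named genes detected on at least 8 arrays, the gene most like Ccn2 was Ankrd1, a cardiac ankyrin repeat protein that is a stretch-responsive gene of the heart muscle and a further YAP target. Its probe ILMN_2625451 correlated with Ccn2 at r = 0.951 over the 16 arrays, and at 0.901 after the group means were removed. The Ankrd1 log2 values were 13.25, 13.43, 12.62 and 13.22 in aged BACHD hearts, against 12.24, 12.97, 12.78 and 12.27 in aged WT hearts. The same aged hearts were thus high and low for both genes. Its log2 difference was 0.57 between genotypes in aged hearts (adjusted p = 0.590) and 0.68 with age in BACHD hearts, which was called at P below 0.005 (adjusted p = 0.0522). The other Ankrd1 probe, ILMN_2950286, correlated with Ccn2 at r = 0.874 and was called in neither contrast. Its log2 differences were 0.22 between genotypes in aged hearts (adjusted p = 0.730) and 0.24 with age in BACHD hearts (adjusted p = 0.160).

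**Figure D3:**
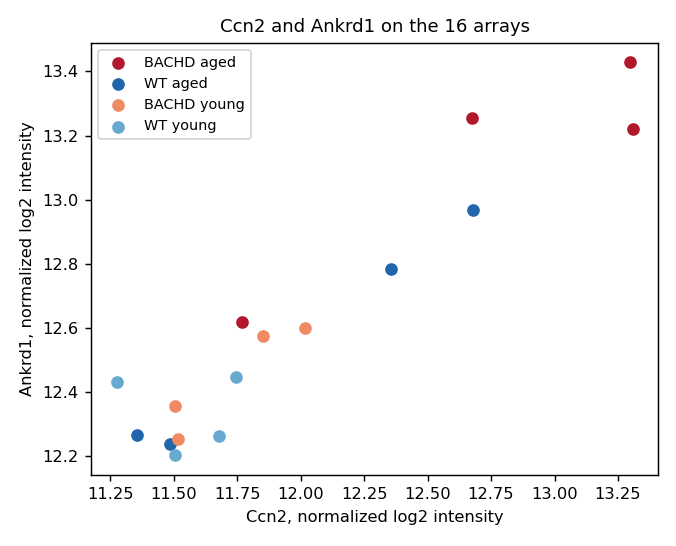
Normalized log2 intensity of Ccn2 (horizontal axis) and of Ankrd1 probe ILMN_2625451 (vertical axis), 1 point for each of the 16 arrays, coloured by group. Of the aged BACHD hearts, 3 of 4 lie at the upper right, and the fourth lies near the young hearts.

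After Ankrd1, the genes closest to Ccn2 were Acadm, a mitochondrial acyl-CoA dehydrogenase (r = 0.869), Selenow, a selenoprotein (r = 0.869), Pkp2, a desmosomal plakophilin (r = 0.860), and H1f2, a linker histone (r = 0.857). For the main Ccn1 probe they were Uba7 (r = 0.881), Col16a1, a collagen chain (r = 0.880), Exd2 (r = 0.838), Cdk20 (r = 0.837) and Nfil3, a transcription factor of the clock output (r = 0.831). Nfil3 had a log2 difference of -1.03 with age in BACHD hearts. For Ccn5 they were Pex14, a peroxisomal import protein (r = 0.869), Setd3, an actin histidine methyltransferase (r = 0.868), Tcf25 (r = 0.859), Il6st, the gp130 receptor chain (r = 0.854), and Dus2 (r = 0.841). Setd3 had log2 differences of 0.44 in young hearts and 0.66 in WT ageing. Setd3, Pex14, Tcf25 and Dus2 had the signs of Ccn5 in both genotype and both age contrasts. Il6st differed in sign between genotypes in aged hearts (0.10). The like genes were chosen by r over these same arrays, so shared signs follow from that choice and are a description. For the Ccn5 genes the r after removing the group means was between 0.521 and 0.680. For the Ccn2 and Ccn1 genes named here it lay between 0.692 and 0.901.

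The genes around the family were read from 9 lists, of which 135 genes had a probe. In BACHD ageing 14 of them (10.4%) were called, 2 higher and 12 lower, beside 5.15% of all probes. In this set 88 of 135 genes were detected on at least 4 arrays, against 10960 of 25697 probes. A fit of those detected probes alone called 9.95% of them. The 14 calls of the lists are over all 135 genes, detected or not, so the shares are not over like sets. In aged hearts between genotypes 2 of 135 (1.48%) were called, beside 0.895% of all probes, and in WT ageing 6 of 135 (4.44%), 4 higher and 2 lower, beside 2.77%. In young hearts, the contrast that chose the family, 1 of 135 was called, beside 0.483% of all probes. The medians of the lists' log2 differences lay between -0.11 and 0.04 in aged hearts and between -0.08 and 0.07 in BACHD ageing, where the median of all probes was 0.00.

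Upstream of Ccn1 and Ccn2, 13 of 17 Hippo pathway genes were measured. Yap1, the transcriptional cofactor itself, was the member called. It averaged 8.27 in aged BACHD and 8.66 in young BACHD hearts, a log2 difference of -0.39 ± 0.12 (SE; adjusted p = 0.0872, limma). In WT hearts Yap1 averaged 8.32 in aged and 8.27 in young animals. It was 0.39 higher in young BACHD than in young WT hearts, also called, and differed by -0.05 between genotypes in aged hearts. The contrast that chose the family used the same young BACHD arrays, so the Yap1 difference with age is not independent of that choice. Wwtr1, which encodes TAZ and is named here after its values were seen, had a log2 difference of -0.0015 in BACHD ageing. Of 22 YAP and TEAD target genes other than the CCN members, 19 were measured and, each read on its probe of highest mean, 0 were called between genotypes or with age. Over all probes 0.483% to 5.15% were called in these contrasts, and 0 of 19 is near those shares. Ankrd1 is in this list and was called in BACHD ageing on its dimmer probe, as given above. Igfbp3, a secreted binding protein of insulin-like growth factors, had log2 differences of 0.59 between genotypes in aged hearts (adjusted p = 0.613) and 0.61 in BACHD ageing (adjusted p = 0.105); it is named here after its values were seen. At the same P threshold, the paper lists the dimmer Ankrd1 probe and Igfbp3 as higher in aged BACHD than in aged WT hearts. It also lists Sdc4 as higher and Eng as lower in aged BACHD hearts, and Yap1 as higher in young BACHD hearts. The counts of the lists given here are from the main processing alone. Gadd45a, a stress-induced growth arrest gene, was called only for the difference of the genotype effects between ages, at 0.57.

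In the TGF-beta list 17 of 20 genes were measured. In BACHD ageing the ligand Tgfb3 fell by 0.51 on the log2 scale (adjusted p = 0.0277), the signal transducer Smad2 fell by 0.48 (adjusted p = 0.0151), and the co-receptor Tgfbr3 rose by 0.40 (adjusted p = 0.0548), so the members that moved did not share a direction. Eng, the endothelial co-receptor endoglin, was lower in aged BACHD than in aged WT hearts, at 9.67 against 10.07 (log2 difference -0.40 ± 0.12, SE; adjusted p = 0.555), and rose by 0.49 in WT ageing (adjusted p = 0.0849). Of 10 measured genes of the serum response factor axis 0 were called in any contrast, near the 0.483% to 5.15% of all probes that were. Srf and Actb, the 2 named there by the rule on small P, had log2 differences in aged hearts between genotypes of 0.09 and -0.03.

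Among receptors of CCN proteins, 13 of 14 were measured. Sdc4, a heparan sulfate proteoglycan that acts as a co-receptor with integrins, averaged 8.46 in BACHD and 7.83 in WT at 15 mo, a log2 difference of 0.63 ± 0.17 (SE; adjusted p = 0.522, limma), and fell by 0.55 in WT ageing (adjusted p = 0.177). Notch1 rose by 0.64 in WT ageing (adjusted p = 0.137). Itgb1, the beta 1 integrin chain that pairs with most integrins of the heart, averaged 7.30 in aged BACHD and 7.74 in young BACHD hearts, a log2 difference of -0.45 ± 0.10 (SE; adjusted p = 0.0330). Of 13 measured ligands and matrix partners 0 were called in any contrast, again near the 0.483% to 5.15% of all probes. Vegfa and Igf1, growth factors that CCN proteins or their modules can bind, had log2 differences of -0.22 and -0.39 between genotypes in aged hearts.

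Fibroblast activation and matrix genes are the setting in which Ccn2 is usually read as a fibrosis marker. Of 16 measured, 0 were called between genotypes at either age, which is near the shares of all probes (0.483% in young and 0.895% in aged hearts). In BACHD ageing 1 was higher and 4 were lower. Of all probes 5.15% were called there, and 9.95% in a fit of the detected probes alone. Col6a2 had a log2 difference of -1.03 (adjusted p = 0.0127), Sparc -0.98 (adjusted p = 0.0111) and Col6a1 -0.62 (adjusted p = 0.0203). In WT ageing these genes were lower too. Sparc was called at P below 0.005 there, at -0.71 (adjusted p = 0.108, limma), while Col6a2 at -0.48 and Col6a1 at -0.33 were not called. Thbs2, a matricellular thrombospondin, was higher with age in both genotypes, by 1.07 in BACHD (adjusted p = 0.000496) and 1.08 in WT hearts (adjusted p = 0.000575). In these BACHD hearts 3 of 9 fibroblast markers were called as lower with age, beside the same 5.15% of all probes. They were Col1a1, Col1a2 and Col3a1, with log2 differences of -1.25, -0.82 and -0.92, and Col1a2 was detected on 3 arrays. None of the other 6 markers was called. Of these, 3 had positive differences (Pdgfra 0.03, Dcn 0.05, Tcf21 0.14) and 3 had negative ones (Lum, Ddr2 and Dpt). The median over the 9 was -0.11. In WT ageing Col1a1, Col1a2 and Col3a1 had log2 differences of -0.81, -0.16 and -0.79, and none of the 9 markers was called. The mean over the 9 markers was 7.82 to 8.22 in aged BACHD and 7.88 to 8.36 in aged WT hearts. In young hearts it was 8.29 to 8.33 in BACHD and 8.12 to 8.41 in WT. Between genotypes in aged hearts the median difference of the 9 markers was -0.16, with 0 positive and none called. The part of fibroblast content in the lower Ccn1 values was not tested.

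Immediate early genes, the class to which Ccn1 belongs, were measured for 21 of 22. In BACHD ageing 2 of these 21 were called as lower, Fosb and Jund, subunits of the AP-1 transcription factor. Their log2 differences were -0.43 and -0.33 (adjusted p = 0.0709 and 0.0897, limma), and Fosb was detected on 0 arrays. Of all probes 5.15% were called in that contrast, and 9.95% in a fit of the detected probes alone. Among other matricellular genes 13 of 14 were measured. Spon2, a spondin, had a log2 difference of -1.46 (adjusted p = 0.0535) and Igfbp7, a secreted relative that shares the binding module of the CCN proteins, one of -0.46 (adjusted p = 0.0423) in BACHD ageing. Aebp1, a collagen-binding protein, rose by 0.49 in WT ageing (adjusted p = 0.116).

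**Figure D4:**
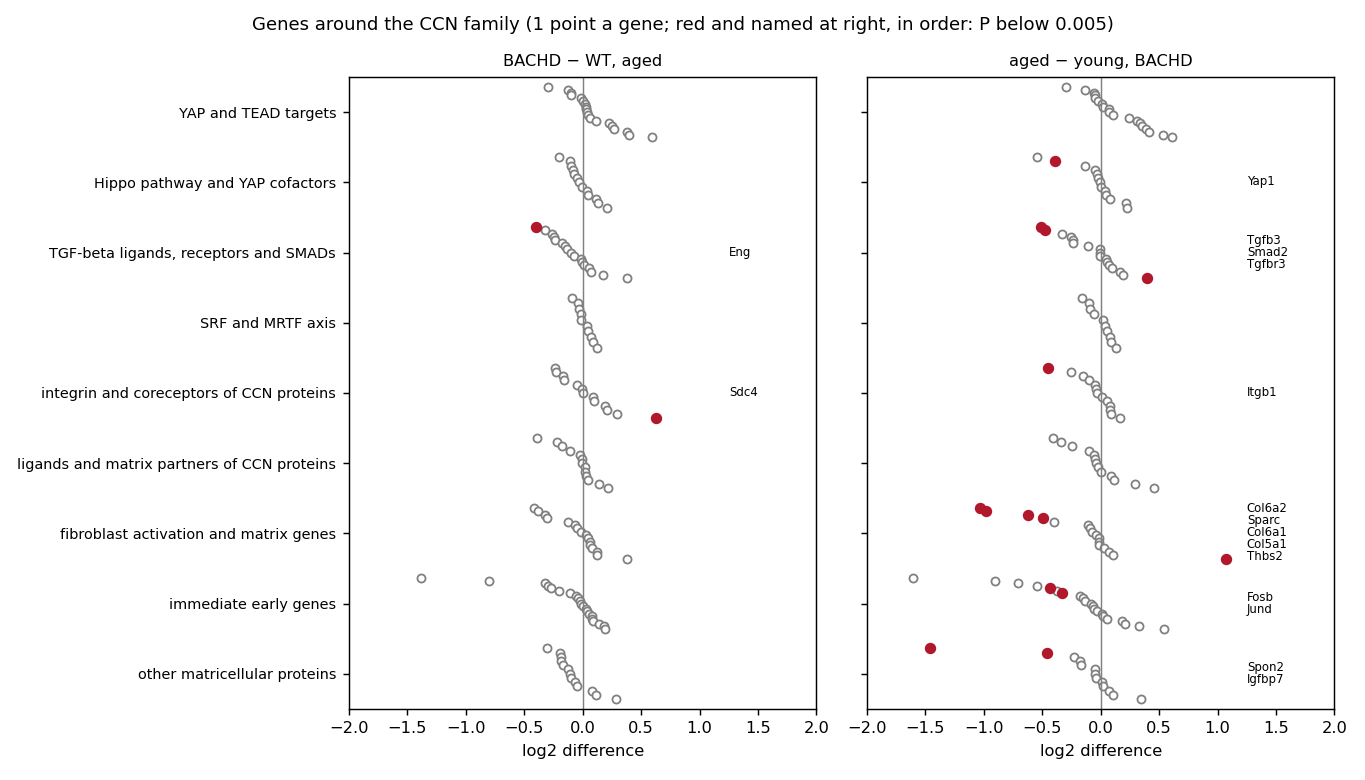
Log2 difference (horizontal axis) of each measured gene in 9 lists around the CCN family, for BACHD minus WT in aged hearts (left) and aged minus young in BACHD hearts (right). Genes that passed P below 0.005 are red and named at the right of each row: 2 of 135 genes in aged hearts and 14 of 135 in BACHD ageing, 12 of them lower.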

How the data were processed

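Ventricle RNA from 16 mice was hybridised by the authors to Illumina MouseRef-8 arrays. The deposited intensity values and detection p-values per probe were not yet normalized, and the deposited log2 values equalled the quantile normalized log2 intensity within 5e-09. Intensities were corrected with neqc in limma 3.58.1 (R 4.3.3; offset 16, controls inferred from detection p-values), quantile normalized and fitted with lmFit and eBayes as 4 groups with 5 contrasts. The offset narrows fold changes of dim probes. As in the methods, P below 0.005 was the threshold, with Benjamini-Hochberg adjusted p over all 25697 probes beside it. Permutation tests were exact and two-sided over 35 splits. Probes were named from the platform annotation (23978 probes with 1 symbol, 1719 with none). The number of arrays limits the precision. The scripts were tested on simulated data.

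The members and the gene lists were chosen with earlier results of these data known. Named genes were the CCN probes, the list members called in a contrast (up to 4 a list by smallest P, otherwise the 2 of smallest P between genotypes), and the 5 genes of highest r for each member detected on at least 8 arrays. Wwtr1, Igfbp3, Pdgfra, Dcn, Tcf21, Lum, Ddr2 and Dpt were named outside this rule. Alternatives covered the background correction, offset, normalization, the deposited log2 values, a filter on dim probes, the arrays in the fit, the variance model, averaged probes, array weights, the replicate number as a block, and each array left out.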

Additional observations from a re-analysis of the deposited data

Results flagged for a closer look

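In young BACHD hearts, array 3 read 4.91 for the brighter Ccn4 probe, against 5.19 to 5.24 on the other 3 arrays of the group. The gap to its nearest neighbour was 0.831 of the range of the group, above the 95% critical value of Dixon's test for 4 samples. It was 1 of 28 groups tested in this way, and chance flags about 1 in 20. The probe was not detected on that array.

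The fit called the change of the Ccn5 genotype difference between the ages. The difference in aged hearts minus that in young hearts was -0.678894 on the log2 scale (SE 0.20). In normalized values, all 4 young BACHD hearts lay above all 4 young WT hearts while the aged groups overlapped. The young hearts chose the family, so a large young difference was fixed by that choice and the value is a description. It passed in 5 of 16 fits with 1 array left out, and not with median scaling or without the 4 arrays of raised atrial markers.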

How the results depend on the processing

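The counts in young hearts and in WT ageing stayed at 1, Ccn5, under the alternatives run; the first contrast chose the family and the second shares its young WT arrays, so this is no independent support. The WT ageing difference of Ccn5 ranged from 0.54 to 0.90 over 11 other settings (adjusted p 0.00043 to 0.0935) and from 0.77 to 0.99 with 1 array left out (adjusted p 0.00484 to 0.0249). The count in BACHD ageing, 1 as reported (Ccn1), was 2 (Ccn1 and Ccn2) with no background correction, with the deposited log2 values and without the 4 arrays of raised atrial markers, an alternative added after seeing the data. It was 0 with median scaling, with the probes of a gene averaged and with the replicate block, and 0 to 2 with 1 array left out: 2 without aged BACHD 3, and 0 without aged BACHD 1 or 2 or young BACHD 1, 2 or 3. The count for the difference of the genotype effects, 1 as reported, was 0 with median scaling and 0 to 1 with 1 array left out; the gene was Ccn1 in place of Ccn5 without aged WT 4 and without the 4 arrays (Ccn1 -1.16). With no background correction and with the deposited log2 values, Ccn5 was 0.344 in young hearts and -0.395 for that difference. The count between genotypes in aged hearts, 0 as reported, was 0 to 1 with 1 array left out (Ccn2 without aged BACHD 3, Ccn1 without aged WT 4) and 2 without the 4 arrays. The cause of these changes was not tested.

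Differences near 0 changed sign. In WT ageing, Ccn1 was -0.0885 with its probes averaged and -0.190 to 0.255 with 1 array left out, its second probe -0.359 to 0.0527, and Ccn4 -0.118 to 0.249 and -0.0605 without the 4 arrays. Ccn5 between genotypes in aged hearts was 0.0075 without the 4 arrays. Over all probes, the number called ranged over 52 to 180 in young hearts, 127 to 443 in aged hearts, 484 to 807 in WT ageing, 858 to 1611 in BACHD ageing and 87 to 331 for the difference of the genotype effects, against 124, 230, 711, 1324 and 157 as reported. Same-numbered arrays of different groups deviated together with r over 0.1 in 12 of 24 pairs (-0.504 to 0.439). The main fit did not take the numbers as pairs. Arrays of different numbers were not compared, so this check cannot tell whether the numbers mark a pairing. Apart from BACHD ageing, the replicate block changed no count of CCN genes. The chip as a block was not run, because the files used here name no chips. Ccn4 was limited by its signal over background.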
